A study of Homo sapiens with 12 samples.

Results

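The wild-type cells of both experiments of a study of PHGDH were set against each other: the 3 libraries of WT-2 against the 3 libraries of WT-1, which are 6 of the 12 libraries of the series. The members were taken by their labels alone. All 12 libraries are bulk RNA-seq of SW1990, an established human pancreatic adenocarcinoma line from a spleen metastasis, maintained in DMEM with 10% FBS and then held for 24 h in DMEM without glucose. Every group had this treatment and none had glucose. Experiment 1 holds WT-1 and S371A, and experiment 2 holds WT-2 and S55A, each with 3 libraries. Per the labels, both wild-type groups carry wild-type rPHGDH, and the mutants carry rPHGDH with a serine changed to alanine. The labels do not explain the prefix, and they do not say what drives the gene, whether the cells' own PHGDH was removed, or whether a group is a clone, a pool or a set of separate cultures. P-values here rest on library-to-library spread alone, part of which may be technical.

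Each experiment has its own table of counts, with 58302 and 50868 genes listed. Of the 50356 gene identifiers in both tables, 49046 (97.4%) had identical coordinates, and only these were compared; they held between 98.0% and 98.2% of the counts of every library. Raw counts carry no scaling of either table, so all 6 libraries entered 1 fit. Group, experiment and annotation release split the libraries in the same way and cannot be told apart. A call below says that these sets of libraries differ, with an edgeR quasi-likelihood Benjamini-Hochberg adjusted p under 0.05 over all genes tested. Levels are CPM, counts scaled to a common library total, differences are log2 fold changes of WT-2 over WT-1 ± SE, and a level given with ± is a mean ± SD of 3 libraries.

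PHGDH is the first enzyme of serine synthesis, a branch that leaves glycolysis and feeds the folate-bound carbon pool. When glucose runs out, cells commonly turn on amino acid stress genes through ATF4 and shift lipid, redox and growth programmes. Sterol genes answer to SREBP2 and the sterol content of membranes, interferon-response genes to STAT and IRF factors, and antioxidant genes to NRF2, so each programme has its own input.

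Totals ran from 15932980 to 19240270 counts in WT-1 and from 13667033 to 17655119 in WT-2. Across the tested genes, libraries of the same wild-type group had a Spearman coefficient between 0.989 and 0.992, and libraries of different groups between 0.963 and 0.964. The biological coefficient of variation was 13%. Pseudogenes took 5.40% to 5.49% of counts in WT-1 and 4.86% to 4.95% in WT-2, and the mitochondrial genome took 6.07% to 6.84% and 6.66% to 7.12%. Both groups had epithelial transcripts at high level, with EPCAM, a surface marker of epithelial cells, at 539 ± 21.7 CPM in WT-1 and 428 ± 9.0 CPM in WT-2. Markers of other cells were low. The 8 leukocyte markers summed to between 0.872 and 1.80 CPM in WT-1 and between 1.69 and 2.49 CPM in WT-2, with CD3E at 0 in all 6 libraries and neither tested member called. The 8 fibroblast markers summed to 21.4 to 23.8 CPM in WT-1 and 10.0 to 19.9 CPM in WT-2, most of it PDGFRB. That receptor of mesenchymal cells was called lower (-0.77 ± 0.21, edgeR adjusted p = 0.0264), a call that 4 of the 6 fits without 1 library did not give. No endothelial marker and no acinar or endocrine marker reached the level needed for a test, and KDR, INS and GCG were at 0.

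PHGDH itself was higher in WT-2. It measured 464, 489 and 450 CPM in WT-1 and 758, 726 and 754 CPM in WT-2, with no overlap. The difference was 0.67 ± 0.05 on the log2 scale (edgeR adjusted p = 6.14e-05), in a fit over all 16067 tested genes that share an identifier. PHGDH needed that wider fit because its coordinates differ between the tables: chromosome 1, 119648411 to 119744226 in experiment 1 and 119659798 to 119744215 in experiment 2 (GRCh38). The exonic length implied by its counts and FPKM was 19533 bases in experiment 1 and 7227 bases in experiment 2. Its deposited FPKM, 24.4 ± 1.03 in WT-1 and 101 ± 2.16 in WT-2, differed by 2.01 on the log2(FPKM + 1) scale, which includes the change of implied length. The counts do not separate expressed from endogenous PHGDH, and the part that the gene model has in the count was not tested.

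The wild-type groups differed widely. Of 15628 genes tested, 6406 were called (41%), 3133 of them higher in WT-2 (20%) and 3273 lower (20.9%), and 1477 were called with a log2 fold change of 1 or more in size. In 55% of tested genes no library of one group fell inside the range of the other. The direction of the split rests on the scaling: upper quartile factors gave 2348 higher and 3967 lower, log2(FPKM + 1) gave 2443 and 3782, and an offset for GC content and length gave 4159 and 2750. The mutant effects, measured within a table, were smaller in number: 1984 of 15677 genes (12.7%) in S371A against WT-1, and 2436 of 15073 (16.2%) in S55A against WT-2. Without 1 library at a time these counts ran from 893 to 1539 and from 1308 to 2420, with the lowest without WT-1 replicate 2 and without WT-2 replicate 1. Log2 fold changes had an SD of 1.0 between the wild types, 0.40 for S371A and 0.46 for S55A.

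The mutant libraries of the same experiments gave another view of the gap between experiments, with no library in common with the wild types, although the mutation differs there as well. Between S55A and S371A, 6360 of 15482 genes were called (41.1%). Across the 15181 genes tested in both pairs, the log2 fold changes had a Pearson r of 0.85 and a Spearman rho of 0.60, given as a description since genes are not independent replicates. Of the 6300 wild-type calls among them, 5353 (85.0%) had the same sign between the mutants, against 71.8% of all genes. Calls with the same sign in both pairs numbered 3557, which is 56.5% of the wild-type calls and 57.1% of the mutant calls, and 219 genes were called with opposite signs. The difference between the pairs was itself tested over all 12 libraries and called for 2037 of 16214 genes (12.6%), which include 1154 of the 6300 wild-type calls (18.3%).

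Part of the counts belongs to genes that share sequence with others. On GENCODE 29, each gene was scored by how many of its 50-base transcript windows recur in a different gene; 9796 tested genes had under 10% of such windows, under 10% of exonic bases overlapped by another gene, the same implied length in both tables within 1%, and no pseudogene type. In these genes, called simple genes from here on and chosen after seeing the data, 3797 were called (38.8%), but 465 passed a log2 fold change of 1 and the SD was 0.52. The Pearson r with the mutant pair was 0.54 and rho 0.51 over 9577 of them, and 3068 of 3766 wild-type calls (81.5%) had the same sign there, against 69.2% of all simple genes.

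**Figure D1:**
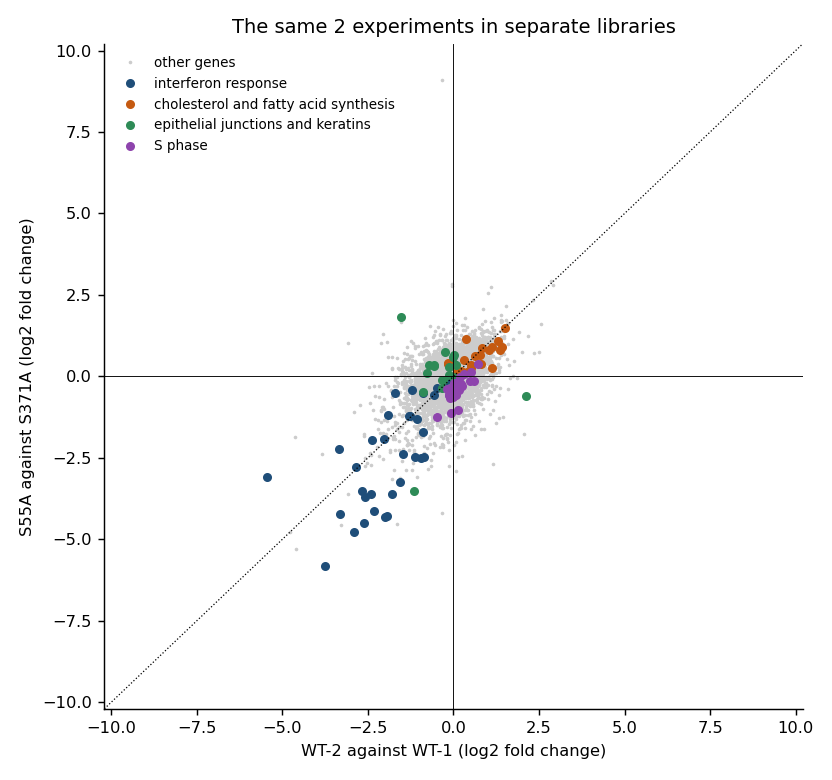
Each point is 1 simple gene, with the log2 fold change of WT-2 over WT-1 on the horizontal axis and that of S55A over S371A on the vertical axis. The dotted line marks equal changes. Interferon-response genes (blue) lie at the lower left in both pairs, sterol genes (orange) at the upper right, and epithelial and S phase genes (green, purple) lie off the line.

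Interferon-response genes were lower in WT-2, by more than any other list. Of 43 tested members, 0 were called higher and 37 lower, with a median log2 fold change of -1.47, where 20.9% of all genes were called lower and their median was 0.00. Among the 35 members that are simple genes, 33 were lower with a median of -1.70, where 18.1% of all simple genes were lower. IFIT1, which binds viral RNA caps, measured 99.2, 91.2 and 92.0 CPM in WT-1 and 18.0, 18.8 and 20.2 CPM in WT-2 (-2.32 ± 0.07, edgeR adjusted p = 2.48e-06). SAMD9, an antiviral factor, measured 43.3, 42.2 and 41.7 CPM in WT-1 and 6.83, 6.70 and 7.81 CPM in WT-2 (-2.58 ± 0.08, adjusted p = 3.59e-06). OAS3, which makes the oligoadenylates that activate RNase L, measured 168, 164 and 158 CPM in WT-1 and 69.5, 66.8 and 69.5 CPM in WT-2 (-1.26 ± 0.05, adjusted p = 5.08e-06). No WT-2 library reached the lowest WT-1 library in any of the 3 genes. In bulk RNA, fewer cells with a programme and less RNA per cell cannot be told apart, here and for every list below. The background for every list is the share of all genes called: 20% higher and 20.9% lower between the wild types. Between the mutants it is 20.3% and 20.8%.

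The promoters of these 3 genes are shown because the interferon complex binds a repeated GAAA motif. Each runs from 250 bases before to 50 bases after the gene's start, 5′ to 3′ on the gene's strand, from RefSeq on GRCh38.p14. Capitals mark every match, on either strand, to GAAA, then 2 bases of any kind, then GAAA. IFIT1 is at chr10:89392373-89392672 on the plus strand, SAMD9 at chr7:93117930-93118229 on the minus strand and OAS3 at chr12:112938224-112938523 on the plus strand.
IFIT1: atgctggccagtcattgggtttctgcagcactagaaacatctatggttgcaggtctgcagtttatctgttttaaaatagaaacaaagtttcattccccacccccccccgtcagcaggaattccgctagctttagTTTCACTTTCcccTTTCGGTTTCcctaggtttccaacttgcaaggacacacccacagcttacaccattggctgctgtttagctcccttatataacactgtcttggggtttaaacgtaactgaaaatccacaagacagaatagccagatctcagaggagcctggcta
SAMD9: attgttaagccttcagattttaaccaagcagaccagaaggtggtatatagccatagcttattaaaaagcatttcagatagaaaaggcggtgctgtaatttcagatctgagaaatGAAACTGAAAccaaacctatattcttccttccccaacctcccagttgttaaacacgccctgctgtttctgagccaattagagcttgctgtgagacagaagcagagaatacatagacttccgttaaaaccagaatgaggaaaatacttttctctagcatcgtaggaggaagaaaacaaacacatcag
OAS3: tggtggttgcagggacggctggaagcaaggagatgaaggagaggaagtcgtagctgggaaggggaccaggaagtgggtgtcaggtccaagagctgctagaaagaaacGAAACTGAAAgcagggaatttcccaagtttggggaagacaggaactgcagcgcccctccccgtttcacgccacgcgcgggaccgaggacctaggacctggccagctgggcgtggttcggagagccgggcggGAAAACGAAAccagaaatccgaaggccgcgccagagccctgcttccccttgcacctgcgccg
The matches begin at -116 and -103 from the start in IFIT1, at -136 in SAMD9, and at -143 and -12 in OAS3. Of 35 list genes with a promoter in the table, 25 hold the motif, against 4.38% of all 27305 genes with a promoter; counted by promoter, 1255 of 35116 (3.57%) hold it. Among tested list genes, 23 of 24 with the motif were lower (median -1.68), as were 7 of 9 without it (median -1.21). Outside the list, 383 tested genes hold the motif; 27.2% of them were called lower and 19.3% higher, with a median of -0.06. A match describes these letters only and is not a bound site.

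The RNA sensors IFIH1 (-1.48 ± 0.07) and DDX58 (-1.12 ± 0.08) fell, as did the effectors MX1 (38.0 ± 1.45 to 9.25 ± 0.99 CPM, -2.04 ± 0.10), IFIT3 (29.9 ± 2.38 to 4.86 ± 1.08 CPM, -2.62 ± 0.16), OASL (-1.80 ± 0.11), RSAD2 (-2.01 ± 0.14), OAS2 (-2.66 ± 0.19), IFI44 (-2.42 ± 0.15) and IFI6 (-2.37 ± 0.22). ISG15, a ubiquitin-like modifier, fell by 0.85 ± 0.07 on the log2 scale. Among the transcription factors of the response, STAT2 (0.09 ± 0.07, edgeR adjusted p = 0.355) and IRF7 (0.03 ± 0.08, adjusted p = 0.803) were not called.

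The same order held between the mutants: of 43 members tested there, 1 was higher and 36 lower in S55A than in S371A (median -1.76), beside 20.8% of all genes called lower in that pair. MX1 (-1.92 ± 0.10) and OAS3 (-1.23 ± 0.05) differed between the mutants by about as much as between the wild types, and the difference of the differences was not called for either (adjusted p = 0.652 and 0.864). For IFIT1 the gap was wider between the mutants, at -4.13 on the log2 scale (adjusted p of the difference = 3.37e-07). Over the list, that difference was called for 18 members, 14 of them relatively lower in S55A and 4 relatively higher. Of all genes, 6.45% and 6.11% had a called difference in those directions. Within a table, each mutant stood above its own wild type: 25 of 43 members were called higher in S371A than in WT-1 (7.13% of all genes) and 1 lower (5.53%), and 17 of 37 were higher (9.13%) and 0 lower (7.03%) in S55A than in WT-2. These comparisons share the wild-type libraries with the one above, so only their values are set side by side. Mean IFIT1 levels ran from 523 CPM in S371A through 94.1 in WT-1 and 29.8 in S55A to 19 in WT-2, so that the mutant of experiment 2 lay below the wild type of experiment 1.

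**Figure D2:**
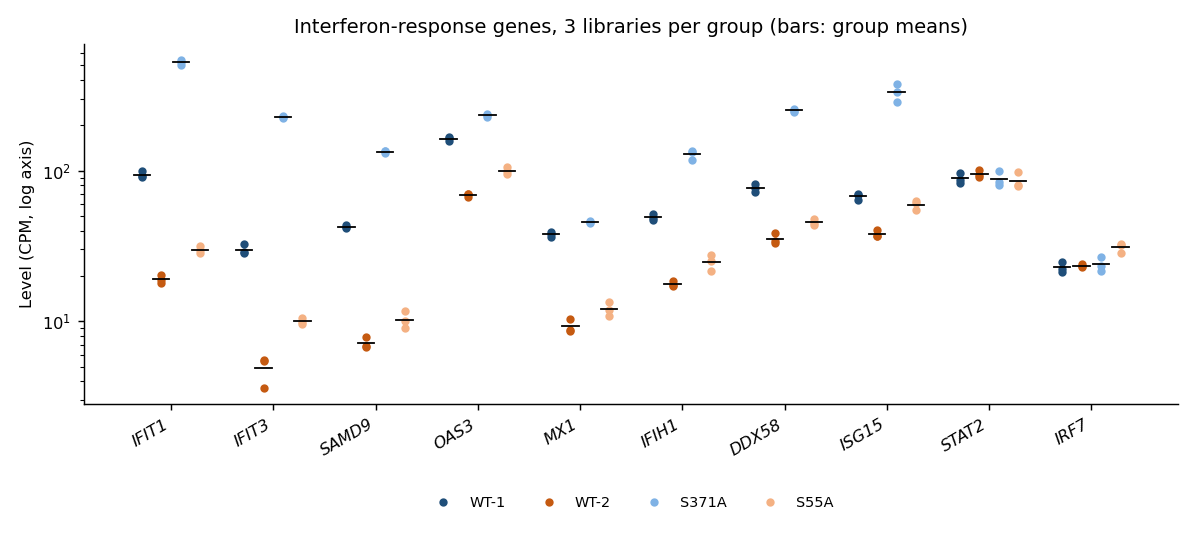
Levels in CPM (log axis) of 10 interferon-response genes, with 1 point per library, 3 libraries per group and a bar at each group mean. From IFIT1 to ISG15 both groups of experiment 2 (orange shades) lie below both groups of experiment 1 (blue shades), while STAT2 and IRF7 lie close together.

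Antigen presentation and poly-ADP-ribose genes followed in part. Of 15 tested antigen presentation genes, 9 were lower and 3 higher in WT-2 (median -0.41), where 20.9% and 20% of all genes were. TAP2, a peptide transporter (-0.96 ± 0.07, with 31.3% shared windows), B2M, the light chain of MHC class I (-1.09 ± 0.15), and the immunoproteasome subunits PSMB8 (-1.67 ± 0.18) and PSMB9 (-2.84 ± 0.32) fell. CD74, the class II invariant chain, fell from 4.35 ± 0.54 to 1.28 ± 0.40 CPM (-1.75 ± 0.23). In the list of NAD synthesis and PARP genes, 8 of 20 were lower and 3 higher, beside the same shares of all genes. The falls include PARP9 (-1.29 ± 0.08), PARP14 (-0.75 ± 0.06), PARP10 (-2.34 ± 0.24) and PARP4 (-0.52 ± 0.04), of which PARP9 is also in the interferon list. NMNAT2, which makes NAD from its mononucleotide, was lower in WT-2 than in WT-1 (9.96 ± 0.79 to 3.85 ± 0.60 CPM, -1.37 ± 0.15) but higher in S55A than in S371A (0.89), and that difference was called (edgeR adjusted p = 3.39e-05).

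Sterol and fatty acid synthesis genes were higher in WT-2. Of 29 members, all tested, 24 were called higher and 0 lower, with a median of 0.62, where 20% of all genes were called higher. In the 22 simple genes of the list the count was 17 and the median 0.57 (20.6% of all simple genes were higher). With the GC and length offset 25 of 29 were higher, beside 4159 of all 15628 genes. FDFT1, squalene synthase, measured 128, 126 and 134 CPM in WT-1 and 288, 279 and 280 CPM in WT-2 (1.12 ± 0.04, edgeR adjusted p = 6.05e-06). MSMO1, which removes methyl groups from lanosterol products, measured 70.9, 78.1 and 73.9 CPM in WT-1 and 200, 240 and 196 CPM in WT-2 (1.51 ± 0.09, adjusted p = 2.79e-05). Neither gene overlapped between the groups. SQLE, squalene epoxidase (1.3 ± 0.10), STARD4, a sterol carrier (1.03 ± 0.05), the desaturase SCD (0.50 ± 0.04) and the fatty acid synthase FASN (0.50 ± 0.08) rose as well. SREBF2, which encodes SREBP2, rose less (0.30 ± 0.05). FADS1, a desaturase of polyunsaturated fatty acids, was not called (-0.16 ± 0.06, adjusted p = 0.0913), but was called lower with upper quartile factors (-0.23, adjusted p = 0.0272). Between the mutants 17 of 29 were higher and 1 lower (median 0.41), where 20.3% of all genes were called higher, and the difference between the pairs was called for 5 members. ABCG1, a sterol exporter outside this list, fell from 13.2 ± 1.67 to 3.22 ± 0.32 CPM (-2.04 ± 0.14).

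**Figure D3:**
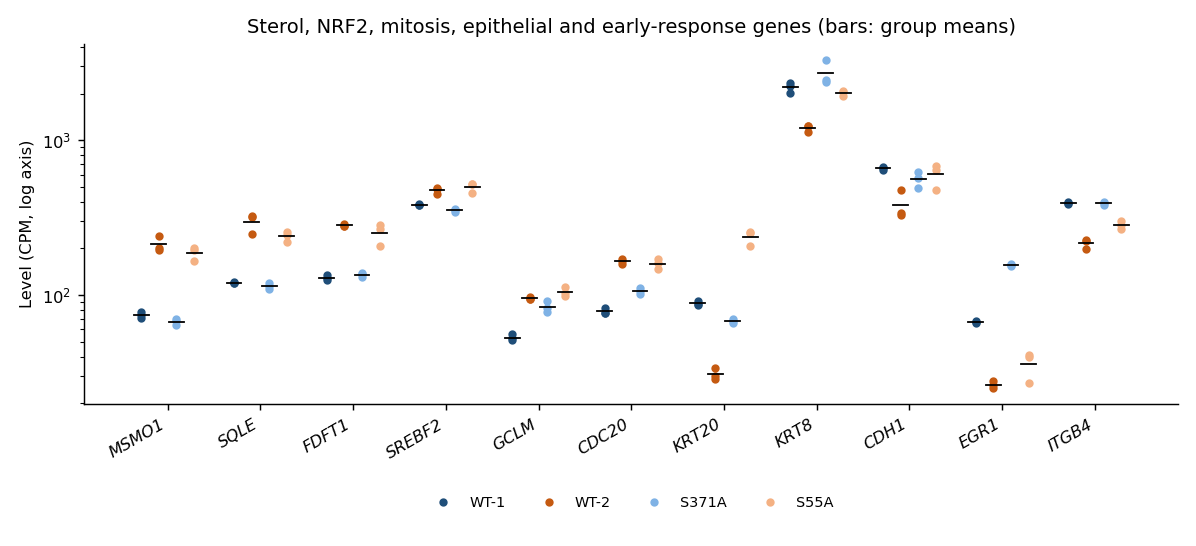
Levels in CPM (log axis) of 11 genes, with 1 point per library, 3 libraries per group and a bar at each group mean. MSMO1 to SREBF2 are higher in both groups of experiment 2 (orange shades); KRT20 is lowest in WT-2 and highest in S55A; EGR1 and ITGB4 are lower in both groups of experiment 2.

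Genes for translation and respiration were higher in WT-2. Of 57 cytosolic ribosomal protein genes, 41 were called higher and 3 lower, with a median of 0.54. The list does not hold every such gene. Outside it, RPS26 (15.9% shared windows) went from 45.6 ± 2.18 to 15.4 ± 1.44 CPM, but from 98.6 to 158 CPM with its copies added. RPL9, also outside, went from 16.3 ± 1.29 to 18.7 ± 1.02 CPM. RPLP2, a stalk protein of the large subunit, measured 173, 171 and 173 CPM in WT-1 and 358, 344 and 362 CPM in WT-2 (1.04 ± 0.04, edgeR adjusted p = 6.14e-06). RPL19 rose from 591 ± 9.12 to 1138 ± 31.8 CPM (0.94 ± 0.04) and RPS14, of the small subunit, from 237 ± 9.15 to 718 ± 69.2 CPM (1.59 ± 0.08). Of the list, 28 genes share 10% or more of their windows with other genes. Over all 57, the median log2 ratio of mean CPM was 0.52 with the counts of named pseudogenes added, against 0.55 without them. Between the mutants 45 of 57 were higher (median 0.70). The nucleolar list had 14 of 25 members higher and 1 lower (median 0.24), among them BOP1 (0.91 ± 0.07), a large subunit assembly factor, and nucleolin, NCL (0.38 ± 0.04).

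Of 30 nuclear genes of the respiratory chain, 18 were higher and 5 lower (median 0.33), with ATP5F1A, the alpha subunit of ATP synthase (1.09 ± 0.05), COX5A of complex IV (0.64 ± 0.06) and SDHB of complex II (0.44 ± 0.05) among the rises. The malate-aspartate shuttle, which carries reducing equivalents into mitochondria, had 4 of 9 members higher and 0 lower. The shares of all genes were 20% and 20.9%, here and for the respiratory and glycolytic lists. MDH1, the cytosolic malate dehydrogenase, rose from 83.4 ± 1.95 to 146 ± 8.05 CPM (0.80 ± 0.06), the carrier SLC25A11 by 0.60 ± 0.06 and the aminotransferase GOT2 by 0.50 ± 0.06. In glycolysis and glucose transport 10 of 23 were higher and 3 lower, with GAPDH (1.02 ± 0.08), TPI1 (0.65 ± 0.06) and PGAM1 (0.50 ± 0.05) higher. These 3 named genes share 17.7%, 12.6% and 30.7% of their windows with other genes. SLC16A3, a lactate exporter, was lower (-1.34 ± 0.17). By the longest annotated transcript of each gene, the median length was 2008 bases in the ribosomal list and 2097 in the respiratory list. It was 2462 bases in the shuttle list and 3016 in the glycolytic list. All of these lie between 2000 and 4000 bases. On this measure, median log2 fold changes differed with transcript length, though not in one order. In simple genes the median was 0.03 for transcripts under 1000 bases, 0.12 from 1000 to 2000 bases, 0.04 from 2000 to 4000 bases, -0.01 from 4000 to 8000 bases and -0.07 above. Between the mutants the shortest class had 0.11, the next 0.13 and the longest -0.08. With an offset for GC content and length, 43 ribosomal, 17 respiratory and 11 glycolytic genes were higher. In that fit 4159 of all 15628 genes were higher and their median was 0.07. The offset also used the longest transcript, which for RPS14 has 3119 bases, and which transcript is expressed was not tested. The part of RNA length, RNA quality or library preparation in these rises was not tested.

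**Figure D4:**
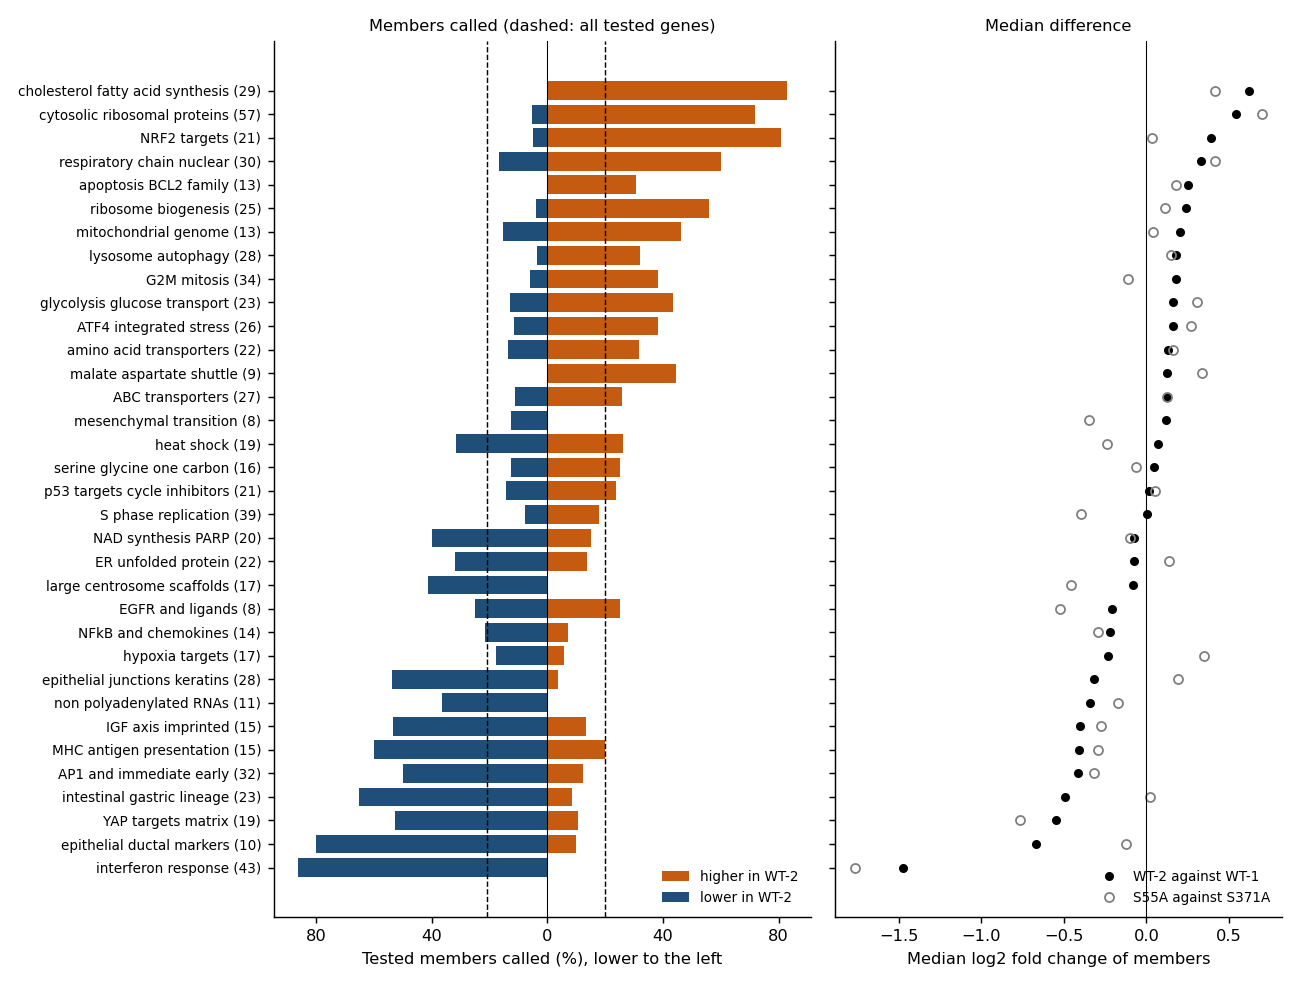
Left, the percent of tested members of each list called higher (orange) or lower (blue, drawn to the left) in WT-2, with dashed lines at 20% and 20.9%, the percents of all tested genes called in each direction; the number of tested members is in brackets. Right, the median log2 fold change of each list between the wild types (filled) and between the mutants (open). Interferon-response genes are lowest and sterol and fatty acid synthesis genes highest between the wild types, and the epithelial, S phase, NRF2 and hypoxia lists have medians that differ between the pairs.

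NRF2 targets were higher in WT-2 and near level between the mutants. Of 21 tested, 17 were higher and 1 lower (median 0.39), and between S55A and S371A 6 were higher and 3 lower (median 0.03). The difference between the pairs was called for 10 members, 9 of them in the direction of a smaller rise between the mutants. GCLM, a subunit of the enzyme that starts glutathione synthesis, measured 52.4, 55.7 and 51.2 CPM in WT-1 and 94.6, 97.8 and 94.6 CPM in WT-2 (0.84 ± 0.05, edgeR adjusted p = 4.16e-05). The groups did not overlap. NQO1, a quinone reductase, rose by 0.54 ± 0.09 (15.3% shared windows) and was level between the mutants (0.00). ABCC2, an exporter of glutathione conjugates, rose from 5.82 ± 0.43 to 14.8 ± 1.16 CPM (1.34 ± 0.11) and was lower in S55A than in S371A (-0.57). GSR, glutathione reductase, was the member that fell (-0.26 ± 0.05).

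More mitotic genes were higher than lower in WT-2, though most were not called. Of 34 G2/M genes, 13 were higher, 2 lower and 19 not called (median 0.18), where 20% of all genes were called higher. CDC20, an activator of the anaphase-promoting complex, rose from 78.6 ± 3.6 to 165 ± 6.61 CPM (1.06 ± 0.06, edgeR adjusted p = 1.72e-05), cyclin B1, CCNB1, by 0.67 ± 0.06 and the kinase AURKA by 0.53 ± 0.06. Of 39 S phase genes, 7, a share near that of all genes, were higher (CDC6 0.52 ± 0.05, E2F1 0.47 ± 0.06 and RFC3 0.73 ± 0.11 among them) and 3 lower, with a median of 0.00. Between the mutants both lists leaned the other way, with 4 G2/M genes higher and 15 lower (median -0.11), and 1 S phase gene higher and 25 lower (median -0.40). The difference between the pairs was called for 19 G2/M and 22 S phase genes, and for all of these the change between the mutants was the lower one. Of 17 large centrosomal scaffold genes, 7 were lower, such as PCM1 (-0.52 ± 0.07), and 0 higher in WT-2. With the GC and length offset, however, 4 were lower and 3 higher. That offset called 2750 of all 15628 genes lower and 4159 higher. CDKN1A, the p21 inhibitor of cyclin-dependent kinases, measured 204, 190 and 196 CPM in WT-1 and 310, 305 and 307 CPM in WT-2 (0.64 ± 0.04, adjusted p = 5.65e-05), and was level between the mutants (-0.01). Cyclin D1, CCND1, fell (-0.53 ± 0.06), and the p53 target BAX rose (0.59 ± 0.08) in a list of p53 targets and cycle inhibitors with 5 of 21 higher and 3 lower, where 20% and 20.9% of all genes were.

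Epithelial and intestinal genes were lower in WT-2. Of 28 junction and keratin genes, 15 were lower and 1 higher (median -0.31), whereas 12 were higher and 7 lower between the mutants (median 0.19). KRT20, a keratin of intestinal epithelium, measured 91.2, 88.1 and 86.2 CPM in WT-1 and 29.8, 28.7 and 33.7 CPM in WT-2 (-1.53 ± 0.07, edgeR adjusted p = 1.24e-05). Between the mutants it went the other way, from 70.1, 67.7 and 66.0 CPM in S371A to 252, 254 and 209 CPM in S55A (1.81), and that difference was called (adjusted p = 5.18e-08). WT-2 was the lowest of the 4 groups and S55A the highest. KRT8, a keratin of simple epithelium, measured 2253, 2330 and 2007 CPM in WT-1 and 1237, 1126 and 1226 CPM in WT-2 (-0.88 ± 0.07), with 16.1% shared windows; its partner KRT18 fell by 0.55 ± 0.06 on the log2 scale. KRT80 (-0.56 ± 0.06), the tight junction scaffold TJP3 (-0.71 ± 0.07) and E-cadherin, CDH1 (-0.79 ± 0.15), fell too. CDH1 was uneven in WT-2, with 330, 340 and 478 CPM.

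Of 23 intestinal and gastric genes, 15 were lower and 2 higher (median -0.49). Of 22 tested between the mutants, 7 were higher and 3 lower (median 0.02), and 3 had the same call in both pairs. The difference between the pairs was called for 10 members, 8 of them relatively higher in S55A. Between the wild types MUC5AC, a gastric mucin, fell from 43.0 ± 5.26 to 20.5 ± 0.47 CPM (-1.07 ± 0.10). LGALS4, an intestinal galectin, fell from 14.3 ± 0.90 to 6.09 ± 0.66 CPM (-1.23 ± 0.12). ALPP, placental alkaline phosphatase, was higher (13.2 ± 0.54 to 44.9 ± 2.05 CPM, 1.76 ± 0.07), although 33.6% of its windows occur in other genes. SOX9, a ductal transcription factor, was called higher (0.21 ± 0.06, edgeR adjusted p = 0.0227), a call that 5 alternatives did not give (adjusted p from 0.0567 to 0.0848). Of the 10 epithelial and ductal markers, 8 were lower in WT-2 and only SOX9 was higher. EPCAM was lower by 0.34 ± 0.05 on the log2 scale. Among hepatocyte markers, SERPINA1 fell from 4.15 ± 0.47 to 0.947 ± 0.235 CPM (-2.13 ± 0.22) and ALB rose from 1.22 ± 0.09 to 3.79 ± 0.68 CPM (1.62 ± 0.20).

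Immediate early and AP-1 genes were lower in WT-2: of 32, 16 were lower and 4 higher (median -0.41), and of 32 between the mutants, 17 and 3. EGR1, a zinc finger factor induced by ERK signalling, measured 65.9, 67.6 and 67.1 CPM in WT-1 and 27.8, 25.1 and 26.2 CPM in WT-2 (-1.35 ± 0.06, edgeR adjusted p = 1.08e-05). KLF10 (-0.59 ± 0.06), the ERK pathway inhibitor SPRED1 (-0.55 ± 0.06) and FOS (-1.11 ± 0.23) fell. MYC, a driver of growth genes on chromosome 8 (127735434 to 127741434), was chosen after its values were seen. It measured 130.5, 143 and 137 CPM in WT-1 and 9.81, 4.74 and 9.48 CPM in WT-2 (-4.08 ± 0.25, adjusted p = 0.000153), and at 85.8 to 117 CPM in S371A and 9.01 to 12.9 CPM in S55A. No MYC window occurs in another gene, but its implied length was 9431 bases in experiment 1 and 8963 bases in experiment 2, so its gene model changed as well, and the part of that change was not tested.

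Among YAP targets and matrix genes 10 of 19 were lower and 2 higher (median -0.55), as were 13 and 1 between the mutants. ITGB4, a laminin receptor subunit, fell from 392 ± 6.14 to 216 ± 15 CPM (-0.86 ± 0.06). TGFBI, a matrix protein (-1.44 ± 0.14), COL17A1 of hemidesmosomes (-0.98 ± 0.11) and the urokinase receptor PLAUR (-1.07 ± 0.14) fell. Of 8 EGF receptor and ligand genes, 2 were higher and 2 lower, near the 20% and 20.9% of all genes. The rises were those of the ligands AREG (133 ± 2.37 to 217 ± 6.68 CPM, 0.70 ± 0.04) and EREG (519 ± 16.6 to 852 ± 56.5 CPM, 0.71 ± 0.06), and both were lower in S55A than in S371A (-0.58 and -0.48). The NF-kB and chemokine list was near the 20.9% of all genes called lower, since 3 of 14 were lower, namely LIF (-0.79 ± 0.10), LCN2 (-0.72 ± 0.10) and BIRC3 (-1.32 ± 0.18), and 1 was higher.

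In the insulin-like growth factor list 8 of 15 were lower and 2 higher. IRS1, the docking protein of insulin and IGF receptors, measured 129, 130 and 122 CPM in WT-1 and 44.2, 41.6 and 44.1 CPM in WT-2 (-1.56 ± 0.05, edgeR adjusted p = 4.14e-06). IGFBP4 (-0.99 ± 0.08), IGFBP6 (-1.12 ± 0.11) and the receptor IGF2R (-0.40 ± 0.05) fell. H19, an imprinted long non-coding RNA next to IGF2 on chromosome 11 (1995163 to 2001470), was chosen after its values were seen. It had 38077, 26152 and 30279 counts in WT-1 and 0 in all 3 WT-2 libraries, at least 7724-fold lower against a floor of 3 counts in a library. S371A had 29327 to 39354 counts and S55A 0, so the split follows the experiment and not the mutation. Only 2.07% of H19 windows occur elsewhere. Annotation release and cells cannot be told apart here. The same holds for PRODH, proline dehydrogenase, with 337, 258 and 346 counts in WT-1 and 0 in WT-2. In all, 19 genes with a mean of 5 CPM or more in WT-1 had 0 counts in every WT-2 library. Of these, 14 share 10% or more of their windows, beside 4686 of all 15628 tested genes. The reverse, with 0 counts in WT-1, held for 1 gene.

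Amino acid stress genes leaned higher in WT-2, and serine and folate genes were near the background. Of 26 ATF4 and integrated stress genes, 10 were higher and 3 lower (median 0.16), where 20% and 20.9% of all genes were: PYCR1 of proline synthesis (0.76 ± 0.07), the transporters SLC38A2 (359 ± 13.7 to 518 ± 23.6 CPM, 0.53 ± 0.05) and SLC7A5 (0.48 ± 0.05) rose, and WARS, a tRNA synthetase also induced by interferon, fell (-0.54 ± 0.06). Of 16 serine and folate genes other than PHGDH, 4 were higher and 2 lower (median 0.05). PSAT1, the next enzyme after PHGDH, stood at 564 ± 5.41 CPM in WT-1 and 617 ± 6.0 CPM in WT-2 (0.12 ± 0.04, edgeR adjusted p = 0.0319), a call that 10 alternatives did not give, 5 of them fits without 1 library. ALDH1L1, which oxidises formyl folate, fell (-0.33 ± 0.07) while it was higher in S55A than in S371A (0.72). Lysosome and autophagy genes had 9 of 28 higher and 1 lower, where 20% and 20.9% of all genes were. ULK1 (0.52 ± 0.06) and NPC1, a lysosomal cholesterol transporter (0.48 ± 0.06), were among those higher. Of 22 unfolded protein genes 3 were higher and 7 lower, such as PDIA3 (-0.50 ± 0.04, with 30.4% shared windows). Of 17 hypoxia genes 1 was higher and 3 lower, with P4HA2, a collagen hydroxylase, at -0.78 ± 0.06. The hypoxia share called lower was not above the 20.9% of all genes. With the GC and length offset, which called 4159 genes higher and 2750 lower in all, these lists had 5 higher and 5 lower, and 4 and 4. Between the mutants without that offset these counts were 9 and 0, and 7 and 1.

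Heat shock genes were split, with 5 of 19 higher and 6 lower, where 20% and 20.9% of all genes were. HSP90AB1, the constitutive cytosolic HSP90, rose by 0.48 ± 0.04 and the co-chaperone BAG3 fell (-0.65 ± 0.06). HSPA1A, an inducible HSP70 gene on chromosome 6 (31815464 to 31817946), measured 333, 324 and 312 CPM in WT-1 and 1.99, 1.66 and 2.40 CPM in WT-2 (-7.31 ± 0.10, edgeR adjusted p = 1.65e-07). Its neighbour HSPA1B fell from 130 ± 2.82 to 55.9 ± 2.66 CPM (-1.22 ± 0.05). They share 71.3% and 73.5% of their windows with other genes, and another gene overlaps 36.5% of the exonic bases of HSPA1B. Reads of windows common to both could be given to either. The sum of HSPA1A and HSPA1B was 453 ± 12.4 CPM in WT-1 and 57.9 ± 3.02 CPM in WT-2. It does not depend on how reads were divided between the pair, but does on reads dropped or given to other genes. Some other family sums were lower in WT-2 too, as for SERF1A and SERF1B (14.4 to 0.354 CPM) and CKMT1A and CKMT1B (18.3 to 3.79 CPM). That of RPS26 and its copies was higher (98.6 to 158 CPM). The part of the counting rule in these sums was not tested.

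Among genes of the same implied length in both tables, most of the largest changes were in genes that share sequence with others. That limit left out H19, which had 0 counts in WT-2 and few shared windows. Within it, the 10 largest rises and 10 largest falls were taken from called, named genes averaging 5 CPM or more whose groups did not overlap. Of these 20, 10 were pseudogenes and 16 shared 10% or more of their windows. Of all 15628 tested genes, 1494 were pseudogenes and 4686 shared 10% or more. In 19 of these 20 the call was the same between the mutants, beside 56.5% of all wild-type calls tested in both pairs. RPL9P7, a processed copy of the ribosomal protein gene RPL9, had 473, 556 and 547 CPM in WT-1 and 0.06, 0.23 and 0.06 CPM in WT-2 (-12.17 ± 0.19), while its sister copy RPL9P9 went from 194 ± 6.87 to 395 ± 26.8 CPM; the sum of RPL9 and both copies was 735 ± 43.6 CPM and 414 ± 25.9 CPM. RPSAP17 (4.97 ± 0.23) and RPL12P1 (3.67 ± 0.09) were the largest rises, and BCL2L2, a survival gene of the BCL2 family, rose by 3.6 ± 0.84 with 69.3, 60.7 and 10.2 CPM in WT-2, a call that 6 alternatives did not give. Of 1030 processed pseudogenes tested, 71.1% were called and 60.6% were lower in WT-2, with a median of -0.95 (-1.05 between the mutants). A log2 fold change of 1 or more was called for 5.46% of genes with under 1% shared windows and for 26.0% of those with 60% or more, while the percent called at any size was 38.8% and 47.0%.

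**Figure D5:**
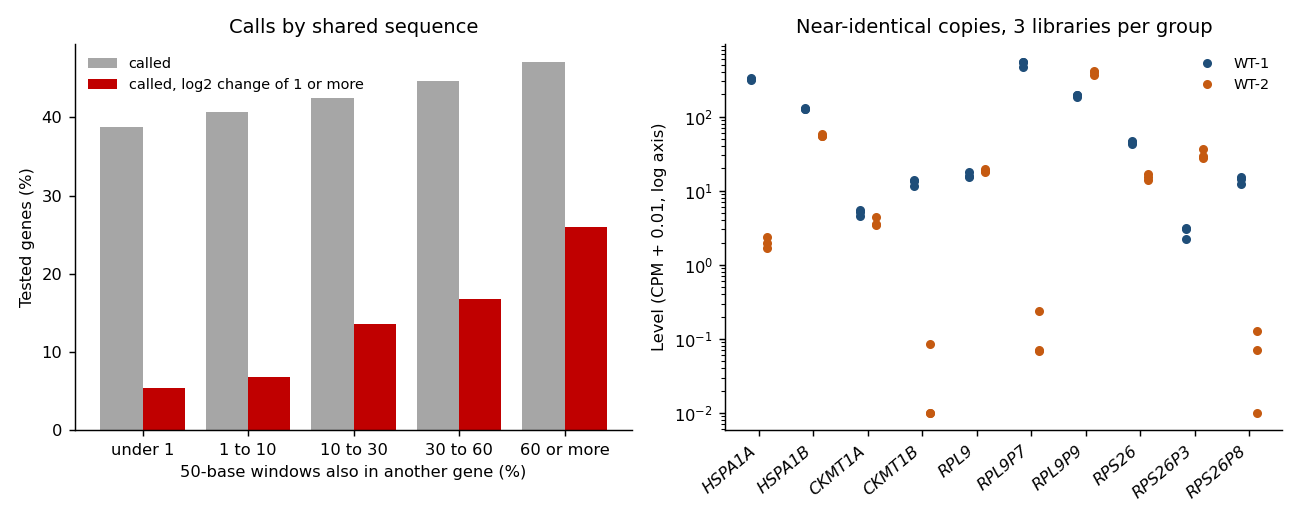
Left, percent of tested genes called (grey) and called with a log2 fold change of 1 or more in size (red) by the percent of 50-base windows also found in another gene; the red bars rise from 5.46% to 26.0%. Right, levels in CPM + 0.01 (log axis) of near-identical copies, with 1 point per library and 3 libraries per group; HSPA1A, CKMT1B, RPL9P7 and RPS26P8 are near 0 in WT-2 while a copy in the same family is not.

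Among simple genes the largest changes were spread over several functions. Of the 15 largest rises and 15 largest falls together, 25 had the same call between the mutants. Among all wild-type calls in simple genes tested in both pairs the share was 49.4%. ZNF33B, a zinc finger gene, measured 17.9, 16.7 and 15.8 CPM in WT-1 and 123, 123 and 130 CPM in WT-2 (2.89 ± 0.07, edgeR adjusted p = 6.48e-07). MT2A, a metallothionein that binds zinc and copper, stood at 23.7, 23.2 and 21.6 CPM and at 129, 88.7 and 127 CPM (2.33 ± 0.15, adjusted p = 9.78e-05). S100A10, a partner of annexin A2, rose from 102 ± 4.88 to 299 ± 16.6 CPM (1.55 ± 0.06), SUMO3, a ubiquitin-like modifier, by 1.57 ± 0.09, and TNFSF9, a ligand of T cell costimulation, by 1.46 ± 0.09. Further rises were A2ML1, a protease inhibitor (2.84 ± 0.21), and SLC35B2, a sulfate donor transporter of the Golgi (2.57 ± 0.09). SLC25A28, a mitochondrial iron carrier, rose by 2.0 ± 0.09. SLC35B2 and SLC25A28 were not called between the mutants, where the S371A libraries were uneven. SLC35B2 measured 12.1, 12.6 and 55.2 CPM in S371A and 78.3 to 84.2 CPM in S55A, with no overlap. SLC25A28 measured 24.6, 7.025 and 7.53 CPM in S371A and 14.6 to 25.8 CPM in S55A. ZNF664 reversed: it measured 151, 155 and 164 CPM in WT-1 and 633, 676 and 646 CPM in WT-2 (2.05 ± 0.05), but at 389 to 591 CPM in S371A and 92.7 to 274 CPM in S55A (-1.76). Of the 15 falls, 7 are members of the interferon list. Others were PABPC3, a poly-A binding protein gene (75.1 ± 0.86 to 15.9 ± 1.49 CPM, -2.25 ± 0.08), APOL6 (-2.16 ± 0.12), the amino acid transporter SLC38A3 (-2.05 ± 0.30) and the tetraspanin TSPAN1 (-2.04 ± 0.10).

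Medians by position on the genome lay close to 0. Chromosome medians ran from -0.08 on chromosome 13 to 0.11 on chromosome 19. Of 259 windows of 10 Mb with 20 or more tested genes, the lowest median was -0.34 (chromosome X, 60000001 to 70000000, 20 genes, and -0.04 between the mutants) and the highest 0.19 (chromosome 19, 30000001 to 40000000, 118 genes, and 0.19 between the mutants). Only 3 windows passed 0.3 in size.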

How the data were processed

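Gene counts and FPKM of 12 libraries were deposited in one table per experiment. Per the submitters' processing notes, edgeR, StringTie 1.3.0, HISAT2 2.0.4 and CASAVA were used; mm10 is listed as a build beside GRCh38. What each did, the strand setting and the counting rule were not stated. The authors' deposited counts are whole numbers per gene, not normalized. The deposited FPKM values are scaled by length and depth by the authors, and were used for an alternative and for implied lengths.

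Counts of genes with identical coordinates were joined and tested with edgeR 4.0.16 in R 4.3.3 (filterByExpr, TMM, robust quasi-likelihood, Benjamini-Hochberg at 0.05); SE is the log2 fold change divided by the root of F. A floor of 3 counts was 0.156 to 0.22 CPM. Alternatives used DESeq2 1.42.0, limma 3.58.1 on log2(FPKM + 1), other scalings and filters, and fits without 1 library. The fits were tested on simulated data.

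Named genes are PHGDH, the 10 largest rises and falls (mean of 5 CPM, no overlap, same implied length) and the 3 called members of each list with the smallest p. Members and lists were chosen with earlier results of these data known. Other genes named, and the simple genes with their 15 largest rises and falls, were chosen after values were seen. No library was left out. Results of some genes are not reported here.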

Additional observations from a re-analysis of the deposited data

Results flagged for a closer look

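For 54 genes named above, the difference between the experiments was not the same in the wild types and in the mutants, by edgeR's interaction test over all 12 libraries with Benjamini-Hochberg adjusted p from 5.18e-08 to 0.0467. Each value here is the log2 difference of S55A from S371A less that of WT-2 from WT-1, so a value above 0 means that S55A stood relatively higher. It can equally be read as the difference between the S55A and S371A effects.

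Of 18 interferon-response genes with a called difference, 14 stood relatively lower in S55A and 4 relatively higher, while MX1 and OAS3 had no called difference. The values of those named above were IFIT1 -1.82, DDX58 -1.35, ISG15 -1.64, OASL -1.82, IFIT3 -1.90, RSAD2 -2.32, SAMD9 -1.13, IFIH1 -0.91, IFI44 -1.20 and OAS2 -0.85. Of the antigen presentation and NAD genes, the values were CD74 1.45 and NMNAT2 2.25.

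Keratins and junction genes went the other way, with KRT20 3.34, TJP3 1.05, KRT80 0.87 and CDH1 0.88. KRT20 had the smallest adjusted p of all 54. Lineage and surface genes gave LGALS4 1.31, ALPP -1.65, TSPAN1 1.33, SOX9 -0.34 and EPCAM -0.21.

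Of the cell cycle genes named above, 7 had a called difference and stood relatively lower in S55A: CDC20 -0.48, AURKA -0.51, CCNB1 -0.34, CDC6 -0.38, E2F1 -0.62, CDKN1A -0.66 and CCND1 -0.52. In the list of p53 targets and cycle inhibitors 5 members had a called difference, 2 higher and 3 lower. The ribosome assembly factor BOP1 gave -0.44. Of the NRF2 targets, GCLM -0.54, NQO1 -0.55, ABCC2 -1.92 and GSR -0.42 were of the same sign.

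Signalling, matrix and growth factor genes gave AREG -1.29, EREG -1.20, EGR1 -0.78, KLF10 0.35, SPRED1 0.40, LCN2 0.99, ITGB4 0.40, TGFBI 0.77, IRS1 0.70, IGFBP4 0.89, IGFBP6 -1.40, IGF2R 0.26 and PDGFRB 1.0.

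Metabolic and other genes gave P4HA2 0.96, PDIA3 0.50, ALDH1L1 1.04, SLC16A3 1.86, ZNF664 -3.81, FADS1 0.56, ABCG1 1.02 and ALB -1.27. Causes of these differences were not tested.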

How the results depend on the processing

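The 6406 wild-type calls stayed within 1.5 times under all alternatives on the full gene set (5026 to 6501 without 1 library, 5758 with DESeq2); a fit on simple genes alone, which tests fewer genes, gave 3806, and 3741 of 6360 between the mutants. Without 1 library the mutant pair gave 5155 to 6406 calls, the difference between the pairs 1381 to 2207, S371A against WT-1 893 to 1539 of 1984, and S55A against WT-2 1308 to 2420 of 2436. Replicate numbers do not pair the libraries: deviations of same-numbered wild types correlated at 0.02, -0.01 and -0.04, and WT-1 replicates 2 and 3 correlated best with another number. With the replicate number as a block the calls numbered 5353 between the wild types, 5399 between the mutants, 1619 for the difference, 792 for S371A and 1583 for S55A. Scaling moved the split of calls, also between the mutants (2506 higher and 3766 lower with upper quartile factors, 3709 and 2520 with the GC and length offset); the cause was not tested. On simple genes alone, which leave fewer members to test, 19 of 27 ribosomal, 10 of 19 respiratory and 10 of 14 NRF2 genes were higher. Of 24 AP-1 genes there, 10 were lower. Of all 9796 genes in that fit, 1941 were higher and 1865 lower. Interferon genes called lower numbered 35 to 37 without 1 library, and sterol genes called higher 22 to 25. Other lists called higher gave 37 to 43 ribosomal, 16 to 18 respiratory, 12 to 18 NRF2 and 10 to 15 G2/M genes. Lists called lower gave 14 to 16 junction and keratin, 12 to 13 intestinal, 12 to 14 AP-1 and 8 to 10 YAP genes. The intestinal and AP-1 counts thus stayed below the 15 and 16 of the main fit. With upper quartile factors 12 NRF2 genes were higher. The lowest window median was -0.30 with 5 Mb windows, -0.32 with genes of the same implied length and -0.28 with simple genes, and the highest was 0.20, 0.20 and 0.22. Of 2495 values over 126 named genes, 25 lost and 1 gained a call, in 5 genes (FADS1, SOX9, PSAT1, BCL2L2 and PDGFRB), and 0 reversed. Genes under 0.156 to 0.22 CPM, the floor of 3 counts, could not be told from 0.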
